A study of Drosophila melanogaster with 10 samples.

Results

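Whole Drosophila melanogaster larvae of the third instar from 2 groups, Jarid2 mutants and larvae labelled E(z) RNAi, were compared with each other directly. The comparison used 4 of the 10 Affymetrix arrays of the series, namely the 2 Jarid2 mutant and the 2 E(z) RNAi arrays chosen by their titles, and covered 18769 probe sets after removal of the array maker's controls. The mutants carried the Jarid2MB00996 allele, listed in the labels over the TM3 balancer chromosome, and the labels do not say whether both copies were mutant in the animals collected. The RNAi larvae are named by a UAS-E(z)-RNAi transgene. The labels name no Gal4 driver, so the tissues in which it was active are unknown here, and the genotype field of these arrays reads wild type. All larvae were raised at 25 °C, and each sample held 20 ground larvae, so an array averages over animals and over every tissue. The 2 larval control arrays, labelled wild type, entered the fit for the estimate of spread and are printed beside the compared arrays for orientation. They take no part in any difference between the compared groups.

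Polycomb repressive complex 2 silences genes by methylating a histone tail, and E(z) is its catalytic subunit. Jarid2, a JmjC-domain protein without known demethylase activity, binds the complex and its target chromatin. In flies the complex is best known for keeping Hox and other developmental regulators silent outside their domains. The title of the series asks which functions of Jarid2 depend on the complex and which do not. A direct contrast of the 2 perturbed groups asks where their transcriptomes differ from each other, a question that comparisons with shared controls do not test.

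The target genes were read first. Jarid2 stood at 4.19 and 4.26 in the mutant arrays and at 9.34 and 9.53 in the labelled E(z) RNAi arrays, on the deposited log2 scale. Both mutant arrays lay far below both others, and the mutant level was under the lower quartile of its arrays, which makes the difference of -5.21 ± 0.13 (SE, n = 2 arrays per group, limma adjusted p = 0.000635) a lower bound on its size. E(z) read 8.48 and 8.41 in Jarid2 mutants against 9.25 and 9.56 in the labelled E(z) RNAi arrays. The E(z) transcript was thus read higher, not lower, in both arrays named for its knockdown, by 0.96 on the log2 scale, although this did not pass the test (-0.96 ± 0.16 as Jarid2 minus E(z) RNAi, adjusted p = 0.064). The labels do not say which part of the transcript the hairpin targets. Every direction below is therefore relative to arrays that showed no loss of the E(z) transcript, and "labelled E(z) RNAi" states the label only.

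Across the whole table, 252 of 18769 probe sets (1.34%) were called at an adjusted p under 0.05, with 127 higher in Jarid2 mutants and 125 higher in the labelled E(z) RNAi larvae. Represented by the brightest probe set of each gene, 172 of 11982 genes (1.44%) were called, 89 (0.743%) higher in Jarid2 mutants and 83 (0.693%) higher in the labelled E(z) RNAi larvae. The called differences over genes ran from 0.79 to 6.97 log2 units, with a median of 1.47, and 213 of the 252 probe sets differed at least 2-fold. A fit of the 4 compared arrays alone called 185 probe sets, of which 154 were among the 252. The 2 groups did not overlap for 46.4% of all genes, and a called gene nearly has to show such separation. Of the called genes, 75 have only a CG or CR number. A further 34 called probe sets had no gene in the annotation, with differences from -3.50 to 4.41, and 13 named several genes.

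**Figure D1:**
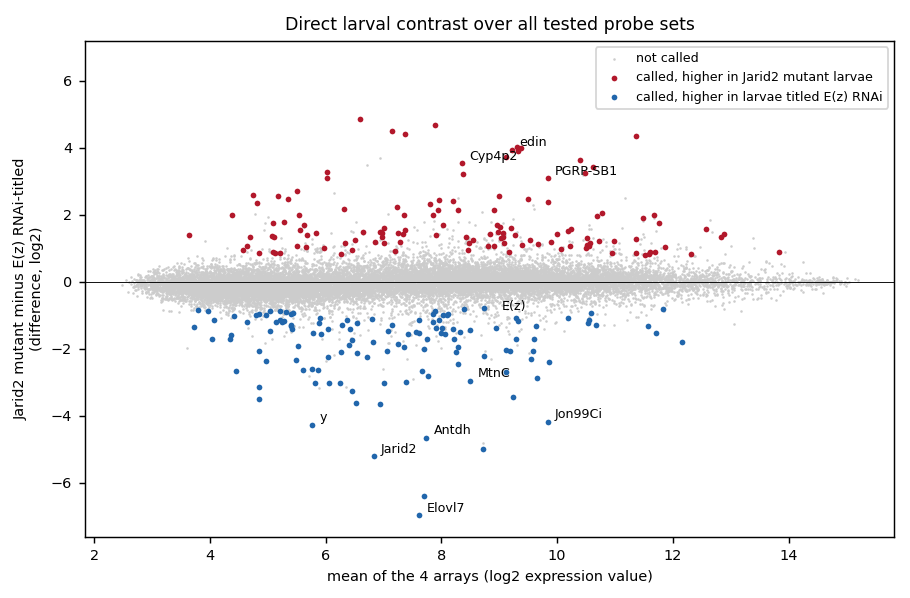
Difference between Jarid2 mutant and labelled E(z) RNAi larvae (vertical axis, log2) against the mean of the 4 arrays (horizontal axis, log2 expression value), 1 point per probe set. The 127 red and 125 blue called probe sets run from dim to bright levels, with Elovl7 (-6.97) and Jarid2 (-5.21) at the lower edge.

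The calls were sensitive to single arrays. With Jarid2 mutant array 1 left out 5 probe sets were called, with array 2 left out 7, and with labelled E(z) RNAi array 1 or 2 left out 58 and 26. Each of these fits has a group of 1 array, which is assumed to vary like the other groups, so the counts describe sensitivity and do not rank the genes. Leaving out either control array gave the 185 of the fit without controls. Elovl7, Jarid2 and y were the 3 genes called in all 4 of those fits. The replicates of the labelled E(z) RNAi group differed more from each other than those of the mutant group, with a pooled SD over probe sets of 0.295 against 0.193 and 0.351 for the controls. Markers of fat body, salivary gland, midgut, muscle, haemocytes and neurons were all above the lower quartile in the compared arrays, as whole larvae would give.

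Among the genes lower in Jarid2 mutants, an elongase, a dehydrogenase, a protease and a cytochrome P450 gene had low values in the mutant arrays, while the labelled E(z) RNAi arrays lay within about 1 log2 unit of the controls. The fatty acid elongase gene Elovl7 read 4.00 and 4.26 in Jarid2 mutants, 11.35 and 10.85 in labelled E(z) RNAi larvae and 11.52 and 11.63 in controls. Its difference of -6.97 ± 0.20 (adjusted p = 0.000635) was the largest of all named genes, and the mutant level lay below the lower quartile. Antdh, a short-chain dehydrogenase gene of the antenna, read 5.84 and 4.98 in mutants against 9.86 and 10.27, a difference of -4.65 ± 0.33 (adjusted p = 0.00739). The Jonah-family serine protease gene Jon99Ci read 7.79 and 7.72 against 11.27 and 12.57, and differed by -4.17 ± 0.41 (adjusted p = 0.0173). In each of these 3 genes the mutant arrays lay below the other larval arrays without overlap. The cytochrome P450 gene Cyp6a18 followed the same order at -3.26 ± 0.27 (adjusted p = 0.0115).

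Further genes that stood lower in Jarid2 mutants included a relaxin-type receptor gene, an amino acid transporter gene and a purine enzyme gene. Lgr3, which encodes the receptor for the growth-coordinating hormone Ilp8, read 5.63 and 5.37 in mutants against 8.25 and 8.77 (-3.01 ± 0.23, adjusted p = 0.00858). Of 14 measured genes used as markers of fly stocks 2 were called, ry and y (14.29%, against 1.44% of all genes). The gene y was also the 1 called of 27 melanin and yellow family genes (3.70%). The xanthine dehydrogenase gene ry read 6.42 and 6.24 in mutants, 8.72 and 9.24 in labelled E(z) RNAi larvae and 8.72 and 8.65 in controls, so that the mutant arrays were the low ones (-2.65 ± 0.20, adjusted p = 0.00857). The amino acid transporter gene path differed by -2.80 ± 0.34 (adjusted p = 0.0284), which did not pass in the fit of the 4 compared arrays alone (adjusted p = 0.0616). Lower values in mutants were also read for lky (-3.02 ± 0.41) and for the prolyl hydroxylase gene PH4alphaSG1 (-2.61 ± 0.30). Of the numbered genes, CG32198 differed by -4.99 ± 0.59, CG17380 by -3.64 ± 0.53, CG32751 by -3.62 ± 0.54 and CG43120 by -3.03 ± 0.25.

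For y and MtnC, the labelled E(z) RNAi arrays were the ones farther from the controls. The pigmentation gene y read 8.01 and 7.79 there, 3.63 and 3.64 in Jarid2 mutants and 3.65 and 3.80 in controls. It was close to the lower end of the scale in both other larval groups, and its difference of -4.27 ± 0.14 (adjusted p = 0.000635) is a lower bound in size. The metallothionein gene MtnC read 9.74 and 10.20 in labelled E(z) RNAi larvae, 7.27 and 6.78 in mutants and 6.37 and 6.59 in controls (-2.94 ± 0.24, adjusted p = 0.0102). The labels do not say whether the stocks differed in the y allele or in other background markers, and its part in the other differences was not tested.

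Among genes with a name that were higher in Jarid2 mutants, the 4 largest differences included 3 immune genes and a cytochrome P450 gene. The numbered gene CG14219 had a larger one (4.50 ± 0.57). The immune-induced gene edin read 10.99 and 11.38 in mutants, 6.89 and 7.59 in labelled E(z) RNAi larvae and 9.94 and 10.78 in controls. The labelled E(z) RNAi arrays were the low ones, and the difference was 3.95 ± 0.36 (adjusted p = 0.0153). The cecropin gene CecB, which encodes a peptide against bacteria, read 10.72 and 11.26 against 6.84 and 7.68, with controls between at 9.18 and 10.10 (3.73 ± 0.42, adjusted p = 0.0243). PGRP-SB1, a peptidoglycan recognition gene, read 11.25 and 11.51 against 8.23 and 8.35, with controls highest at 12.52 and 12.13 (3.09 ± 0.18, adjusted p = 0.00606). Cyp4p2 by contrast stood away from the controls in the mutants, reading 9.88 and 10.35 there, 6.41 and 6.75 in labelled E(z) RNAi larvae and 6.83 and 7.21 in controls (3.54 ± 0.23, adjusted p = 0.00685).

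Further genes higher in mutants than in labelled E(z) RNAi larvae had varied roles. The cuticle protein gene Cpr67Fa1 read 7.66 and 7.47 in mutants against 4.41 and 4.56 (3.09 ± 0.17, adjusted p = 0.0057), and its neighbour Cpr67Fa2 9.57 and 9.13 against 7.18 and 7.25 (2.13 ± 0.18, adjusted p = 0.0122). Mutant arrays were the high ones for both genes and did not overlap with the labelled E(z) RNAi arrays. The amylase-related gene Amyrel was higher by 2.48 ± 0.26, the neprilysin-like gene Nepl8 by 2.59 ± 0.16, the calcium-binding membrane protein gene Mctp by 2.41 ± 0.11 and the serpin gene Spn28Dc by 2.40 ± 0.31. Jhedup, related to juvenile hormone esterase, was higher by 2.24 ± 0.24, with the labelled E(z) RNAi arrays as the low ones (8.53 and 8.18 in mutants, 5.82 and 6.40 in labelled E(z) RNAi larvae, 9.00 and 8.71 in controls). The chitin-binding protein gene obst-I was higher by 2.14 ± 0.23. Numbered genes with large values were CG14219 (4.50 ± 0.57), CG17110 (2.57 ± 0.17), CG12560 (2.46 ± 0.29) and CG43050 (2.36 ± 0.17). Of the 32 genes named by size, 29 were called in the fit of the 4 compared arrays alone, and CG14219, CG12560 and path were not. The dimmer group lay below the lower quartile of its arrays in 12 of the 32, whose differences are lower bounds. Besides Jarid2, 51 called genes were named by rule, of which 40 kept their call in that fit, and the list members that lost it were Drs, Cyp6a14, GstE9, tobi, Jon99Fi, Cpr76Bc, Sgs5bis and Act88F.

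**Figure D2:**
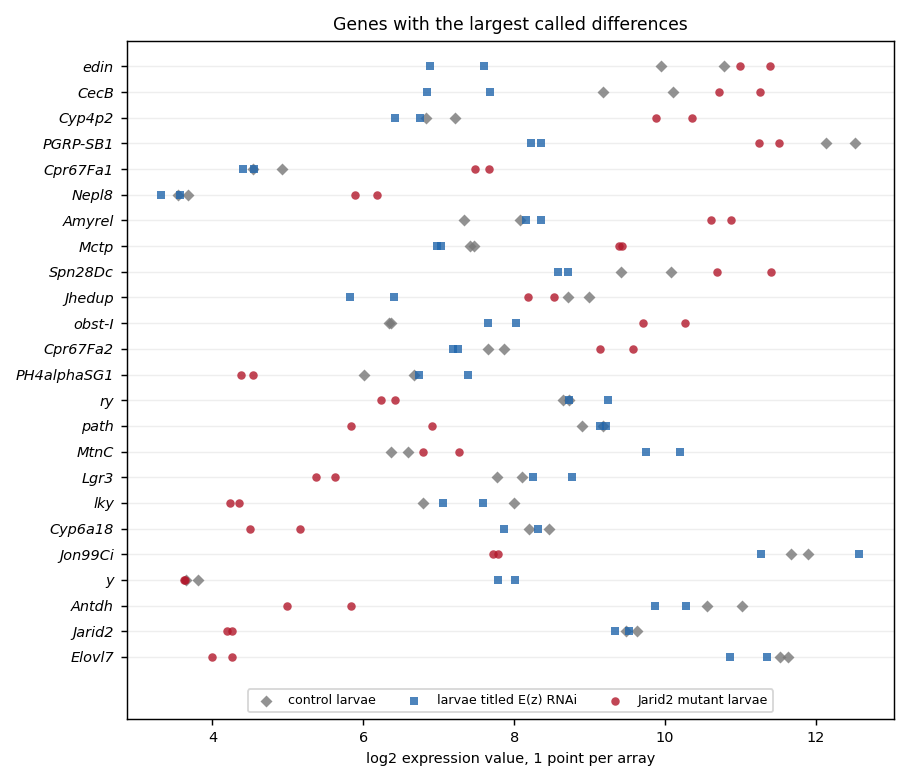
Log2 expression values (horizontal axis) of the named genes with the largest called differences, 1 point per array, for Jarid2 mutant, labelled E(z) RNAi and control larvae (2 arrays each). For y and MtnC the blue squares stand apart from both other groups, whereas for Elovl7, Antdh and ry the red circles do.

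The controls showed which of the compared groups stood away from them. Of the 172 called genes, the Jarid2 mutant mean alone lay at least 1 log2 unit from the control mean in 61, and the labelled E(z) RNAi mean alone in 55. Both lay that far away in opposite directions in 5 genes and in the same direction in 6, and neither did in 45. Over all 11982 genes these counts were, in the same order, 204, 238, 7, 121 and 11412. Calls select genes that differ between the compared groups, so the low count for the same direction follows from that choice. The opposite cases among the called genes were CG14219, CecB, Spn28Dc, CG13060 and CG34002. The first 3 were higher in Jarid2 mutants than in controls, and the last 2 lower. CG13060 read 5.97 and 5.83 in mutants, 7.46 and 7.58 in controls and 8.44 and 9.33 in labelled E(z) RNAi larvae (-2.99 ± 0.29, adjusted p = 0.0173). In CG34002 the order was the same, at 5.10 and 4.73, 6.14 and 5.90, and 7.03 and 7.28 (-2.23 ± 0.19, adjusted p = 0.0115). These positions describe means against 2 control arrays and carry no test.

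**Figure D3:**
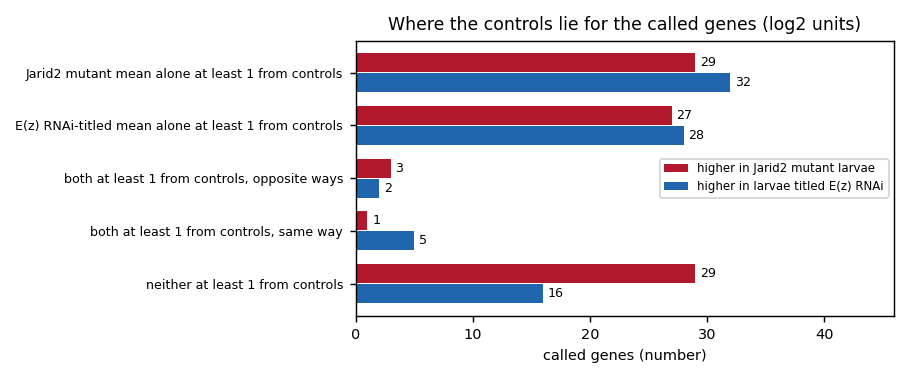
Number of called genes (horizontal axis) by the position of the 2 group means relative to the control mean, with 1 log2 unit as the limit, for genes higher in Jarid2 mutant (red) or labelled E(z) RNAi larvae (blue). One group alone stood away in 61 and 55 of the 172, with 5 genes in opposite and 6 in equal directions. Calling selects against equal directions, which 121 of all 11982 genes showed.

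Some genes differed from controls in both groups yet also from each other in degree. The piRNA pathway gene krimp read 6.83 and 6.88 in mutants, 8.27 and 8.47 in labelled E(z) RNAi larvae and less than either in both controls (-1.52 ± 0.18, adjusted p = 0.0255). The alkaline phosphatase gene Alp7, chosen after its values were seen, showed the same order (-2.03 ± 0.26, adjusted p = 0.0349), and was not called in the fit of the 4 compared arrays (adjusted p = 0.0738).

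An earlier analysis of these arrays had found 8 genes changed in both groups against the shared controls. They gave 0 calls in the direct limma contrast. As 1.44% of all genes were called, 0 of 8 says little. Of the 8, 3 had an unadjusted p under 0.05 (37.5%, against 15.41% of all genes). In the fit of all 10 arrays 2 of the 8 were called, where 718 of all 11982 genes were. For several of the 8 the interval in the larval fit was narrow. The glutathione transferase gene GstE1 read 11.17 and 11.03 in mutants and 10.97 and 11.13 in labelled E(z) RNAi larvae, a difference of 0.05 with a 95% interval from -0.27 to 0.37. The digestive protease gene Jon74E differed by 0.08, with an interval from -0.41 to 0.56. Less was settled for the lysozyme gene LysX (-0.24, from -1.57 to 1.10) and for the acyl-CoA binding protein gene Acbp3 (0.67, from -0.47 to 1.81). The methuselah-like receptor gene mthl8 read 9.63 and 9.92 against 8.94 and 9.00, without overlap, and its difference of 0.81 (0.44 to 1.18) missed the threshold (adjusted p = 0.0788). Its second probe set gave a larger difference the same way (1.30), which was not called either. Prx6c (0.85, adjusted p = 0.198), Tmlh (-0.81, adjusted p = 0.31) and CG11893 (-1.62, adjusted p = 0.0981) also did not pass.

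Among Polycomb genes, Jarid2 was the only call in the larval fit. Of 8 measured genes of the complex and its partners, Jarid2 was the one called (12.5%, against 1.44% of all genes). As Jarid2 is the gene mutated in one of the compared groups, that share follows from the design. The other 7 all had values below 0, from -0.03 for Caf1-55 to -0.96 for E(z). Over all genes, 5799 of 11982 had values below 0. The subunit gene esc read 8.52 and 8.47 in mutants against 8.73 and 8.93 (-0.33 ± 0.13, adjusted p = 0.278), and Su(z)12 differed by -0.20 ± 0.16 (adjusted p = 0.606). The interval for Pcl ran from -0.52 to 0.06. The 9 measured genes of Polycomb repressive complex 1 and its recruiters gave 0 calls, 0 at an unadjusted p under 0.05 and 0 in the fit of all 10 arrays, with a median difference of 0.06. The 14 measured Trithorax group genes, which oppose Polycomb silencing, likewise gave 0, 0 and 0, with a median of -0.04. A mixed list of HP1-type and H3K27-linked chromatin genes includes nej and Utx, and Utx is also in the Trithorax list. Of its 8 measured genes 0 were called by limma, with 1 at an unadjusted p under 0.05 (12.5%, against 15.41% of all genes) and 0 in the fit of all 10 arrays.

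Of 69 measured regulators known as targets of Polycomb silencing, 0 were called by limma in the larval fit and 1 in the fit of the 4 compared arrays. Of the 69, 11 had an unadjusted p under 0.05 (15.94%, where all genes gave 15.41%). In the fit of all 10 arrays 6 were called, where 718 of all 11982 genes were. Their median difference was 0.02, beside 0.01 over all genes. The 4 measured Hox genes, which set segment identity, gave 0 calls by limma, 0 at an unadjusted p under 0.05 and 0 in the fit of all 10 arrays. Scr read 7.18 and 7.84 in mutants against 8.17 and 8.04 (-0.60, 95% interval -1.35 to 0.16), Antp differed by -0.22, Dfd by 0.15 and pb by -0.08. For Dfd and Antp the intervals stayed within 1 log2 unit. That of pb did too, but pb read 4.47 and 4.28 in mutants against 4.45 and 4.47. These levels lay below the lower quartile of their arrays, so the interval for pb does not show equal expression. Abd-B, abd-A, Ubx and lab were listed but not measured, so nothing was read for them.

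3 genes of the antimicrobial peptide list were called higher in Jarid2 mutants than in labelled E(z) RNAi larvae. The list includes edin, named above only as immune-induced. Antimicrobial peptides are made mainly by the fat body under the Toll and Imd pathways. Of 14 measured members 3 were called (21.43%, against 1.44% of all genes), or 2 in the fit of the 4 compared arrays, and 6 had an unadjusted p under 0.05, again all higher (42.86%, against 15.41% of all genes). The list median was 1.31 beside 0.01 for all genes, with 3 members below 0, and the groups did not overlap in 7 of the 14 (50.0%, against 46.4% of all genes). Besides edin and CecB, the antifungal peptide gene Drs was called, reading 13.45 and 13.53 against 12.36 and 11.97, with controls at 13.49 in both arrays (1.33 ± 0.16, adjusted p = 0.0282). Drs was not called in the fit of the 4 compared arrays (adjusted p = 0.0612) or of all 10 (adjusted p = 0.138). The diptericin gene DptB, picked after its values were seen, had uneven replicates, with 12.41 and 12.46 in mutants against 8.53 and 11.30 (2.52 ± 0.85, adjusted p = 0.228). Its labelled E(z) RNAi arrays lay 2.78 log2 units apart.

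In the recognition and signalling list, 2 of 22 measured genes were called (9.09%, against 1.44% of all genes), both higher in mutants. In it 8 had an unadjusted p under 0.05, all higher (36.36%, against 15.41%). The Toll-pathway transcription factor gene dl read 10.26 and 10.07 against 8.86 and 8.97 (1.25 ± 0.13, adjusted p = 0.0228), beside PGRP-SB1. PGRP-SB2, also picked after its values were seen, could not be placed, since it read 5.47 and 7.16 in mutants, 12.61 and 9.66 in labelled E(z) RNAi larvae and 12.70 and 5.73 in controls (-4.82, 95% interval -10.50 to 0.86). The 11 JAK/STAT and Turandot genes gave 0 calls. Of them 3 had an unadjusted p under 0.05, all higher in mutants (27.27%, against 15.41% of all genes). In the fit of all 10 arrays 2 were called, where 718 of all 11982 genes were. Markers of the tissues that make these products were read beside them. The 3 measured fat body markers had medians of 14.82 and 14.93 in mutants and 14.95 and 14.88 in labelled E(z) RNAi larvae, with 0 called. The 6 haemocyte markers had medians of 9.67 and 9.71 against 9.78 and 10.49, with 0 called, and none lay below the lower quartile. The part of haemocyte content in these differences was not tested.

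Detoxification genes moved in both directions. Of 81 measured cytochrome P450 genes 3 were higher and 2 lower in mutants (6.17% called, against 1.44% of all genes), with 28 at an unadjusted p under 0.05 (34.57%, against 15.41%), and the median was -0.05. Beside Cyp4p2 and Cyp6a18 these were Cyp6a19 (1.45 ± 0.14), Cyp6a14 (1.43 ± 0.17) and, outside the naming rule, Cyp6a17 (-1.93 ± 0.27). Of 35 glutathione transferase genes 1 was called (2.86%, against 1.44% of all genes), GstE9 at 1.26 ± 0.16 (adjusted p = 0.035). Its second probe set gave -0.08, so that its direction rests on the brighter probe set. Both groups lay below the controls, which read 10.11 and 10.25. Among 16 antioxidant genes (12.5% called, against 1.44% of all genes) the glutamate-cysteine ligase modifier gene Gclm was higher in mutants (1.21 ± 0.15). The thiol reductase gene GILT3 was lower (-2.07 ± 0.14). MtnC was the 1 called gene of 14 for metal handling (7.14%, against 1.44% of all genes).

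Of 41 digestive enzyme and lysozyme genes 2 were higher and 2 lower in mutants (9.76% called, against 1.44% of all genes), and 9 had an unadjusted p under 0.05 (21.95%, against 15.41%). Amyrel and the alpha-glucosidase gene tobi (1.60 ± 0.22) were higher in mutants, and Jon99Ci and Jon99Fi (-1.53 ± 0.23) lower. For tobi the labelled E(z) RNAi arrays were the low ones, at 6.18 and 6.22, with controls at 7.79 and 7.38. The 4 measured midgut markers had medians of 10.91 and 10.54 in mutants and 11.90 and 12.87 in labelled E(z) RNAi larvae, and 1 of them, Jon99Ci, was called. The median of their differences was nevertheless 0.18, so the other 3 did not follow Jon99Ci. The part of midgut content in these values was not tested, and fewer cells of a tissue and less RNA per cell cannot be told apart in whole larvae.

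Single metabolic and nutrient genes were called in either direction. The sugar-responsive transcription factor gene sug read 8.25 and 8.06 in mutants against 10.12 and 10.29, with controls at 9.09 and 8.65 (-2.06 ± 0.19, adjusted p = 0.0149). The triglyceride lipase gene bmm was higher in mutants at 11.24 and 11.42 against 10.18 and 10.04 (1.22 ± 0.13, adjusted p = 0.0232). It was the 1 called gene of 19 in the fat body and lipid list (5.26%, against 1.44% of all genes). In that list 7 genes had an unadjusted p under 0.05, 6 of them higher in mutants (36.84%, against 15.41% of all genes). In the fit of all 10 arrays 5 of the list were called, where 718 of all 11982 genes were. Both sug and bmm showed separate groups with the controls in between. With tobi, sug made up the 2 called of 14 insulin and nutrient response genes (14.29%, against 1.44% of all genes). Of the 14, 10 had values below 0, where 5799 of all 11982 genes did. The acyl-CoA binding protein gene Acbp6 was higher in mutants than in labelled E(z) RNAi larvae by 1.77 ± 0.21. Both groups lay below the controls, which read 13.18 and 13.55. With Elovl7, Acbp6 made up the 2 called of 14 elongase and binding protein genes (14.29%, against 1.44% of all genes). Of 9 heat shock and chaperone genes, the co-chaperone gene stv was called at 1.59 ± 0.19 (11.11%, against 1.44% of all genes), and 4 had an unadjusted p under 0.05, all higher in mutants (44.44%, against 15.41%).

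Of 98 cuticle protein genes 3 were higher and 1 lower in mutants (4.08% called, against 1.44% of all genes), with a median of -0.07. In that list 27 had an unadjusted p under 0.05 (27.55%, against 15.41%). In the fit of all 10 arrays 8 were called, where 718 of all 11982 genes were. Beside the 2 Cpr67Fa genes these were Lcp65Af (1.76 ± 0.16) and Cpr76Bc (-1.15 ± 0.16). The 31 chitin genes gave 1 call, obst-I (3.23%, against 1.44% of all genes). Of the 31, 7 had an unadjusted p under 0.05 (22.58%, against 15.41%), all higher in mutants. The glue protein gene Sgs5bis, expressed in late larval salivary glands, was the 1 called of 12 glue genes (8.33%, against 1.44% of all genes). It read 14.28 in both mutant arrays against 13.29 and 13.47 (0.90 ± 0.12, adjusted p = 0.0408). Of the glue genes 6 had an unadjusted p under 0.05, 3 each way (50.0%, against 15.41% of all genes). The groups did not overlap in 83.33% of them, against 46.4% of all genes. The 28 ecdysone response genes, which change as larvae near pupariation, gave 0 calls. Of them 3 had an unadjusted p under 0.05 (10.71%, against 15.41%), and 1 was called in the fit of all 10 arrays. For the 10 ecdysone synthesis genes these counts were 0, 1 and 0. Differences ran from -3.17 to 1.43 among the ecdysone response genes and from -1.76 to 0.995 among the glue genes. Whether the compared groups were matched in stage was not tested.

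Of 20 muscle genes 16 had values below 0, where 5799 of all 11982 genes did. The list median was -0.36, beside 0.01 over all genes. The flight muscle actin gene Act88F was the 1 called (-1.07 ± 0.16, adjusted p = 0.0488), which is 5.0%, against 1.44% of all genes. The 3 measured muscle markers had medians of 11.09 and 10.80 in mutants, 11.17 and 12.05 in labelled E(z) RNAi larvae and 10.38 and 11.17 in controls, so the second labelled E(z) RNAi array was the high one. The part of muscle content was not tested. Among 25 piRNA pathway genes krimp was the 1 called (4.0%, against 1.44% of all genes). Of the 25, 9 had an unadjusted p under 0.05 (36%, against 15.41%). In the fit of all 10 arrays 6 were called, where 718 of all 11982 genes were. The 38 testis genes gave 0 calls (3 at an unadjusted p under 0.05, which is 7.9%, and 1 in the fit of all 10 arrays). The 18 cell cycle genes gave 0 (3, which is 16.67%, and 1). For 13 sex-biased genes it was 0 (5, which is 38.46%, and 3) and for 17 haemocyte genes 0 (1, which is 5.9%, and 0). There were also 0 calls among 15 methuselah-like receptors (4, which is 26.67%, and 2) and 8 Oatp transporters (2, which is 25.0%, and 2). The 56 odorant binding and chemoreceptor genes gave 0 as well (11, which is 19.64%, and 3). Beside these shares stand 15.41% of all genes at an unadjusted p under 0.05.

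**Figure D4:**
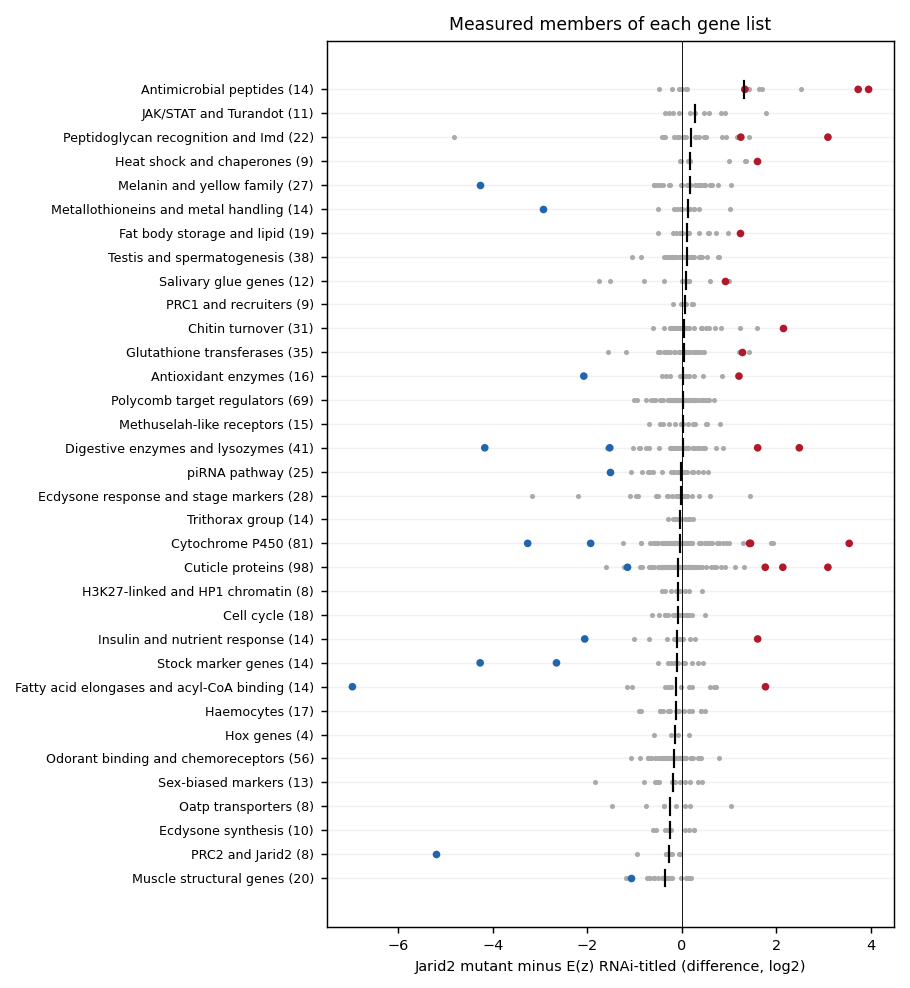
Differences between Jarid2 mutant and labelled E(z) RNAi larvae (horizontal axis, log2) for the measured members of each list, with their number in brackets. Large red and blue points are called genes, small grey points are not called, and black bars are list medians, of which that of antimicrobial peptides (1.31) is farthest from 0.

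Eye-antenna disc cells gave a second reading of Jarid2 in samples that the larval contrast did not use. Jarid2 itself read 7.64 and 6.80 in mutant disc cells against 10.14 and 10.10 in control disc cells (-2.90 ± 0.28, limma adjusted p = 0.0177). The mutant disc arrays thus kept more Jarid2 signal than the mutant larvae, at 4.19 and 4.26. In the 4 disc arrays, fitted alone, 80 genes (0.668%) were higher and 282 (2.35%) lower in Jarid2 mutant than in control disc cells. Of the 89 genes higher in mutant larvae than in labelled E(z) RNAi larvae, 11 were called in discs, and all 11 were lower in mutant disc cells. The 11 include CG14642, counted by its brighter probe set alone. Of the 83 genes higher in labelled E(z) RNAi larvae, 8 were called in discs, all lower in mutant disc cells too. Both counts are larger shares than the 2.35% of all genes lower in discs, a difference that was not tested, and all 19 were lower in mutant discs whichever way they differed in larvae.

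The 8 genes lower in Jarid2 mutants than in labelled E(z) RNAi larvae, and lower than controls in disc cells, were Jarid2, GILT3, CG7322, Erasp, CG4325, CG7607, CG8745 and repo. Of these, GILT3 fell in discs by 1.05 ± 0.08 (adjusted p = 0.0075). The glial homeobox gene repo, chosen after its values were seen, read 6.40 and 6.98 in mutant larvae against 8.85 and 8.54 (-2.01 ± 0.25, adjusted p = 0.0282), and was lower in mutant disc cells by 1.68 ± 0.16 (adjusted p = 0.0162). In the fit of the 4 compared larval arrays alone repo narrowly missed the threshold (adjusted p = 0.0511). Erasp, likewise picked after its values were seen, differed by -1.43 ± 0.19 in larvae and -3.78 ± 0.29 in discs. The larval values are against labelled E(z) RNAi larvae and the disc values against controls, so their signs have unlike references. Among the 11 with opposite signs, Drs was higher in mutant than in labelled E(z) RNAi larvae by 1.33 and lower in mutant than in control disc cells by 4.61 ± 0.56. Its mean in mutant larvae lay within 0.01 of the control larvae, and the labelled E(z) RNAi larvae were the low ones. The HP1-related gene HP1D3csd, picked in the same way, was higher by 1.63 ± 0.20 in larvae and lower by 4.12 ± 0.24 in discs, and the fit of the 4 compared arrays alone did not call it (adjusted p = 0.0556). The numbered gene CG14642 was measured by 2 called probe sets of opposite sign in larvae (1.15 and -0.95). Its place among the 11 rests on the brighter probe set, and its direction is not settled.

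**Figure D5:**
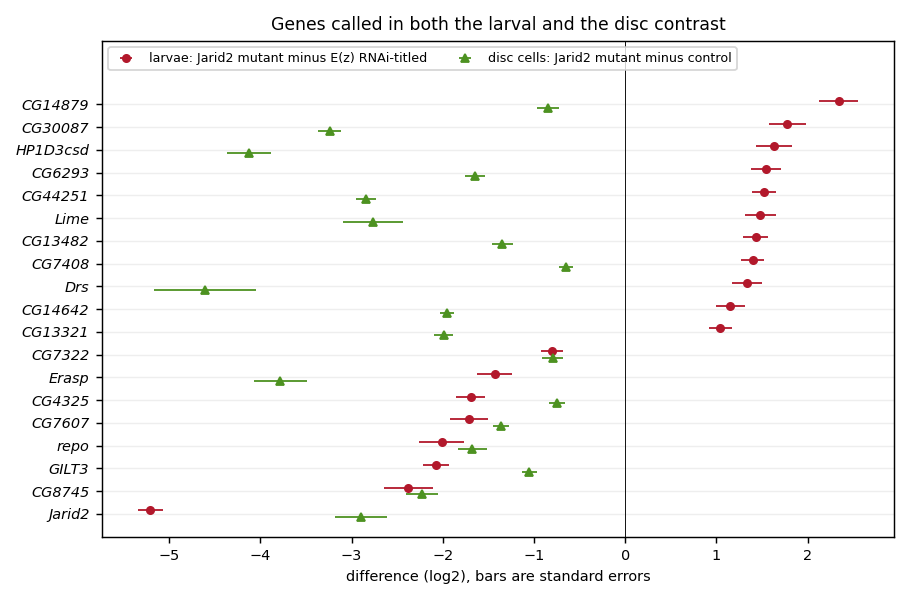
Differences (horizontal axis, log2, bars are standard errors) of the 19 genes called in both contrasts, with Jarid2 mutant minus labelled E(z) RNAi larvae in red and Jarid2 mutant minus control disc cells in green. All 19 green points lie below 0, while 11 of the red points lie above it.

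In the order of the RefSeq annotation (assembly Release 6), 8 pairs of neighbouring measured genes were both called, with 16 of the 172 called genes in them and no longer run, and 5 of the pairs went one way. They included Cpr67Fa1 with Cpr67Fa2, obst-I with CG13806, and ry with l(3)87Df, of which ry was lower and l(3)87Df higher in mutants. Around Jarid2, 1 of the 20 nearest measured genes, 10 on each side, was called, namely path, and 5 had an unadjusted p under 0.05, where 1.44% and 15.41% of all genes did. Of 16 called genes with several probe sets, 11 had all of them on the same side of 0, and in 5 a second probe set was called. The second probe sets of Mctp (1.01) and dl (0.72) went the same way but were not called. That of GstE9 went the other way (-0.08). The carbonic anhydrase gene CARPB was called by both of its probe sets, at -2.44 and -1.30.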

How the data were processed

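The authors deposited log2 values per probe set, a unit read from their range. The labels and headers do not state how background, normalization and probe set summary were done, and limma 3.4.3 appears in the submitters' processing notes. Of 18952 probe sets, 183 array controls were left out. The platform annotation named a single gene for 13647 probe sets, more than one for 402 and no gene for 4720. By gene ID, 13544 were found in the reference table. The probe set brightest on average in the 6 larval arrays represented a gene.

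The larval arrays were fitted as 3 groups in limma 3.58.1 (lmFit, eBayes; R 4.3.3), with 3 residual and 2.72 prior degrees of freedom and no covariate. The two-sided contrast was Jarid2 mutant minus labelled E(z) RNAi, with Benjamini-Hochberg adjustment over 18769 probe sets. Disc arrays were fitted apart because an earlier analysis had found their spread to be smaller. The fit was tested on simulated data. Other scalings, filters, fits and left-out arrays were tried. Figures used matplotlib 3.10.9.

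The members, gene lists and alternatives were chosen with earlier results of these data known. Genes were named by rule if called and separated, as the 12 largest each way, the 4 largest each way among numbered genes, the 5 largest with controls at least 1 log2 unit from both groups and between them, or up to 4 called members of a list by p. All measured genes of the complex with Jarid2, Hox genes and genes changed in both groups earlier were also covered. The labels do not name separate cultures or animals for the replicates, so the p-values rest on a spread that may be technical, and 2 arrays a group limit the precision.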

Additional observations from a re-analysis of the deposited data

How the results depend on the processing

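Against 252 called probe sets, 142 were called without the 30% dimmest, 391 with an intensity trend, 426 with array weights, 124 with gene means (over 11982 genes) and 1146 in the fit of all 10 arrays, where 39.27% were higher in Jarid2 mutants instead of 50.4%. Leaving out 1 larval array gave 5 to 185 calls, with 20.0% to 51.35% higher in mutants, and leaving out 1 disc array gave 68 to 408 calls against 428. With replicate number as a block, 45 probe sets were called. Deviations of same-numbered arrays correlated at -0.422 for control and Jarid2 mutant, -0.212 for control and labelled E(z) RNAi, and 0.00639 for the compared groups, so the numbers were not taken as pairs. E(z) stayed at -0.9597 and passed in the fit of all 10 arrays (adjusted p = 0.011) and with array weights (adjusted p = 0.0401). Some values not called changed sign. With 1 array left out, escl ran from -0.8168 to 0.1601, jing from -0.1727 to 0.0518 (0.0202 without labelled E(z) RNAi array 1), pb from -0.1817 to 0.0133 and GstE1 from -0.0308 to 0.1293 (-0.0206 without Jarid2 mutant array 1), and pb was 0.0466 after quantile normalization. The causes were not tested. The files give no background signal, so levels below the lower quartile were read as bounds.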

Other observations

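Some called genes belong to no list and were picked for description after their values were seen. The stress-kinase phosphatase gene puc read 11.93 and 12.09 in Jarid2 mutants against 10.88 and 10.57 in labelled E(z) RNAi larvae, with both controls at 11.85 (1.29 ± 0.15, limma adjusted p = 0.0255). The transcription factor genes Ets21C (1.99 ± 0.23, adjusted p = 0.0247) and Jra, the fly Jun gene (0.87 ± 0.13, adjusted p = 0.0476), were also higher in mutants. In the fit of the 4 compared arrays alone Ets21C was called (adjusted p = 0.0446), while puc (0.055) and Jra (0.0778) were not. The FGF ligand gene pyr was higher in both mutant arrays (1.46 ± 0.14, adjusted p = 0.0167).

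The tyrosine decarboxylase gene Tdc1 and the tyramine receptor gene TyrR were both higher in mutants, by 1.42 ± 0.18 (adjusted p = 0.033) and 1.00 ± 0.13 (adjusted p = 0.0375). For Tdc1 the labelled E(z) RNAi arrays were the low ones, at 8.19 and 8.06, with controls at 9.16 and 9.56. TyrR was not called in the fit of the 4 compared arrays (adjusted p = 0.0729). The yolk protein gene Yp3 read 7.21 and 8.78 in labelled E(z) RNAi larvae against 6.17 and 6.15 in mutants and did not pass the test (adjusted p = 0.148).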
